A study of Homo sapiens with 8 samples.

Results

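The genes described here are the 8387 well expressed genes of RT112, a human bladder cancer cell line, after knock-down of PAI-1. They comprise every gene whose mean reached 10 TPM (transcripts scaled to a common library total, a gene's length-scaled share of a library) over the 4 RT112 libraries, chosen by level alone, out of 27475 human gene entries and out of 18437 genes (45.5% kept) that were above 0 TPM in at least 1 of these libraries. The genes just inside the limit were MTBP, CLCF1 and YEATS2, with means of 10.002, 10.002 and 10.005 TPM. Just outside were TGFB1I1, RP11-879F14.2 and PDE12, with 9.99, 9.998 and 9.998 TPM.

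PAI-1 is a secreted inhibitor of the proteases that turn plasminogen into plasmin, and it also binds the matrix protein vitronectin and the receptor LRP1 with its protease cargo. Well expressed genes of an epithelial tumor line are to a large part the working parts of the cell: ribosomes, the respiratory chain, the protein and lipid factories of the endoplasmic reticulum, the actin cytoskeleton and the keratins. Small shifts of such genes are hard to see one by one, so the members of a shared pathway were read together.

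The study compared 2 bladder cancer lines, RT112 and UM-UC-3, each in 2 groups of 2 libraries. The siPAI-1 group (genotype label: PAI-1 knockdown) was transfected with 3 pooled siRNAs that target PAI-1, and the Scr group with 3 pooled scrambled siRNAs, each with 100 pmol of siRNA in the lipid reagent INTERFERin for 72 h. Both groups were thus transfected, no untransfected cells are compared here, and the effects of single siRNAs of a pool cannot be told apart. The study describes its knock-downs as independent experiments, more of them than there are libraries per group here. The labels do not say which experiment or culture a library came from, so p-values measure the spread between these libraries, which may be biological or only technical. The number of reads, estimated from the smallest steps of the FPKM values, was 34.1 M and 31.5 M for siPAI-1 and 30.4 M and 29.3 M for Scr. The median well expressed gene then held about 3086 reads per library, a counting error of 1.8%, and the gene at the 5th percentile 653 reads and 3.91%, and these errors cover counting only. All 12 markers of urothelial and epithelial cells were at 1 TPM or more in every RT112 library, with a summed level of 11599 to 12988 TPM. Of 19 markers of leukocytes, endothelium, fibroblasts, muscle, liver and red blood cells, 3 or 4 were at 1 TPM or more in a library. Their summed level was 37 to 39.2 TPM with Scr and 38.7 to 40.8 TPM with siPAI-1, and ALB, COL1A2, DES and HBB were listed at 0 throughout.

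Of the 13 well expressed genes of the plasminogen system, 2 were higher and 3 lower without overlap. LRP1, the receptor that clears PAI-1 complexes, had 33.2 and 36.0 TPM with siPAI-1 against 27.4 and 27.0 with Scr (log2 fold change 0.35 ± 0.083). PLAUR, the urokinase receptor, had 59.4 and 63.4 against 74.2 and 64.2 TPM, also without overlap (log2 fold change -0.17 ± 0.095).

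Over all well expressed genes the difference between siPAI-1 and Scr was small and nearly balanced. The median log2 fold change was 0.004, the 5th and 95th percentiles were -0.25 and 0.27, and 51.4% of the genes were higher. With each library rescaled by its median ratio to the others, 47.9% were higher and the median was -0.0064, so the balance itself has no fixed direction. With limma and Benjamini-Hochberg adjustment over the 18437 genes fitted, 0 well expressed genes had an adjusted p under 0.05, and the smallest adjusted p was 0.838. In simulated libraries (dispersion 0.01), this fit gave 0% of changed genes an adjusted p under 0.05, even at a true 3-fold change. The count of 0 therefore cannot show that no gene changed. With only well expressed genes fitted, 59.6% of simulated 1.5-fold and 100% of 2-fold changes passed, as did 5 unchanged genes. The real libraries again gave 0 genes. The simulation gave every gene the same dispersion, which real genes need not share. The 0 of that fit therefore cannot show that no gene changed 2-fold. With 2 libraries against 2, the exact permutation test of a single gene cannot go below p = 0.333. An unadjusted p under 0.05 was found for 305 higher genes (3.64%) and 236 lower genes (2.81%), or 6.45% together. A looser description was used for groups of genes: a gene was counted as higher or lower without overlap if both siPAI-1 libraries were above, or below, both Scr libraries. That held for 1689 higher genes (20.1%) and 1519 lower genes (18.1%), or 38.2% together, and these percentages are the background against which each group is read. Among the genes without overlap the median size was 0.158 on the log2 scale, or 1.116-fold. Of them 1026 higher and 853 lower genes reached 1.1-fold, 29 and 25 reached 1.5-fold, and 5 and 3 reached 2-fold.

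The 2 siPAI-1 libraries did not stand equally far from Scr. The differences of single genes to the Scr mean had an SD of 0.232 in replicate 1 and 0.167 in replicate 2. Against single Scr libraries the SDs were 0.257 and 0.245 for replicate 1 and 0.195 and 0.189 for replicate 2. The 2 Scr libraries differed from each other with an SD of 0.190, about as much as replicate 2 differed from either. Of the 3208 genes without overlap, 2061 (64.2%) were farther from Scr in replicate 1. Where a group's median in RT112 is given, its value in replicate 2, which is the median without replicate 1, is therefore given as well.

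**Figure D1:**
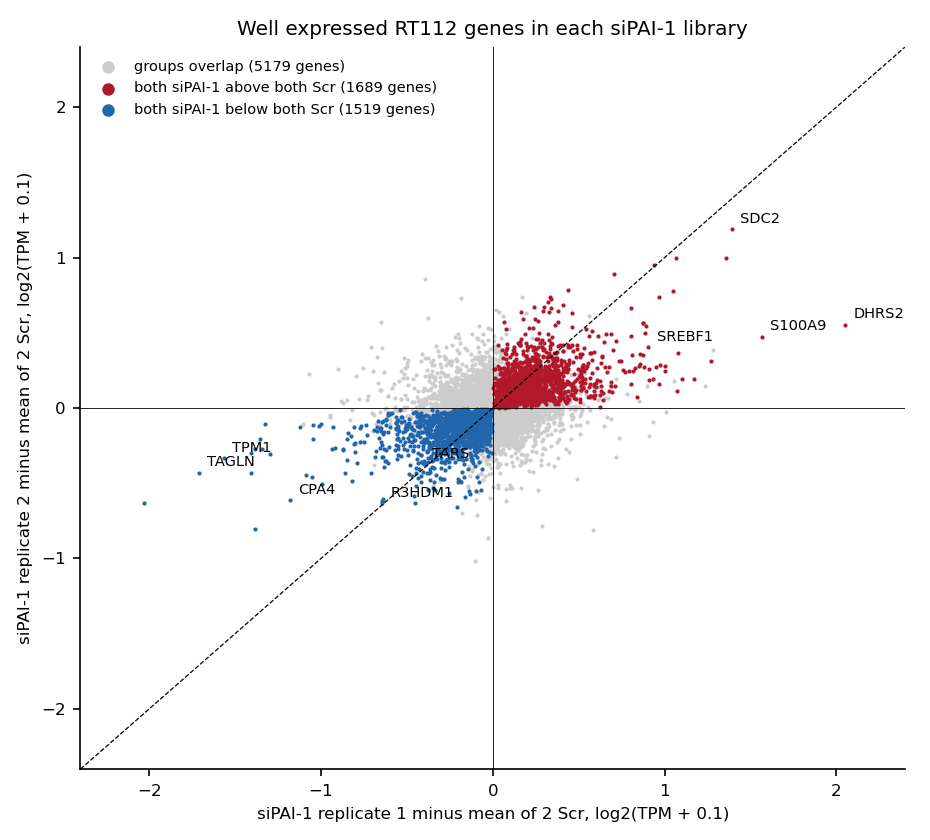
Each point is 1 of 8387 well expressed genes, with its difference to the mean of the 2 Scr libraries in siPAI-1 replicate 1 (x axis) and replicate 2 (y axis), both on the log2(TPM + 0.1) scale. Red and blue mark the 1689 and 1519 genes without overlap, most points lie close to 0, and the outer genes such as TAGLN, TPM1 and DHRS2 lie farther along the x axis than along the y axis, whereas SDC2, TARS and R3HDM1 lie near the diagonal.

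The genes with the smallest p, a choice that favours close replicates, had differences of moderate size. Among the lower genes, TARS had the smallest p. TARS (ENSG00000113407.13, GRCh38 chr5:33440696-33468091) encodes the cytosolic threonyl-tRNA synthetase. It had 280 and 286 TPM with siPAI-1 against 364 and 376 TPM with Scr, with replicates close to each other and groups 1.31-fold apart (log2 fold change -0.39 ± 0.049, limma, unadjusted p = 0.000748, adjusted p = 0.838). TES (chr7:116210539-116258783), a focal adhesion protein, had 127 and 128 against 165 and 161 TPM. MET (chr7:116672196-116798377), the receptor tyrosine kinase for hepatocyte growth factor, had 58.4 and 60.2 against 77.7 and 76.3 TPM. Both genes were 1.28-fold and 1.30-fold lower with little spread inside the groups, at log2 fold changes of -0.35 ± 0.050 and -0.38 ± 0.060. TAF12, a subunit of the general transcription factor TFIID, had 14.9 and 15.3 against 22.2 and 24.3 TPM. R3HDM1, whose product carries an R3H nucleic acid binding domain, had 18.5 and 18.6 against 30.1 and 27.9 TPM. ARAP1, a regulator of Arf GTPases, had 31.3 and 32.5 against 45.6 and 42.5 TPM. The same set also held NETO2, GRIPAP1 and SYNJ2BP-COX16, a readthrough of neighbouring genes whose reads can be divided with its parts. These genes are among the 10 lower genes with the smallest p, and their differences were of similar size in both siPAI-1 libraries.

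Among the higher genes SDC2, a transmembrane heparan sulfate proteoglycan, stood out with 18.6 and 16.2 TPM against 6.10 and 8.15 TPM, a 2.45-fold difference (log2 fold change 1.29 ± 0.192, limma, unadjusted p = 0.00149). CAPS, a calcium-binding phosphoprotein of epithelia, had 90.5 and 80.8 against 54.3 and 60.5 TPM, and TLCD1, a membrane lipid regulator, 41.3 and 39.0 against 26.9 and 29.1 TPM. HIST1H2BK, a core histone gene, had 91.0 and 85.7 against 68.9 and 62.9 TPM. In each of these the groups were separated by more than the distance within a group. MYDGF, a secreted growth factor of the endoplasmic reticulum, had 91.5 and 92.2 against 73.0 and 65.0 TPM, and RBM47, an epithelial RNA-binding protein, 76.9 and 75.5 against 60.5 and 59.1 TPM. EPHB6, a kinase-dead ephrin receptor, had 138 and 147 against 108 and 116 TPM. The remaining 3 genes of this set were ZFYVE16, NDRG2 and RP11-1212A22.4. Unlike the contractile genes described later, these 10 genes were about as high in replicate 2 as in replicate 1. Their choice by p favours such closeness, so it is not a separate result.

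The genes with the largest differences, a choice that favours genes with an extreme library, often had replicates farther apart. TAGLN (chr11:117199294-117207465), which encodes the actin-binding protein transgelin, had 46.8 and 114 TPM with siPAI-1 against 153 and 154 TPM with Scr. TPM1, an alpha-tropomyosin, had 44 and 103 against 131 and 130 TPM, and CALD1, caldesmon, had 13.3 and 28.9 against 35.2 and 35.8 TPM. In these 3 genes the Scr libraries were nearly equal while siPAI-1 replicate 1 lay far below replicate 2. The log2 fold changes of -1.07, -0.95 and -0.85 were -0.43, -0.33 and -0.30 without siPAI-1 replicate 1. CPA4, a secreted carboxypeptidase, was lower in both siPAI-1 libraries at 14.4 and 21.4 against 31.3 and 34.5 TPM (log2 fold change -0.90 ± 0.209). On the higher side DHRS2, a mitochondrial short-chain dehydrogenase, had 124 and 44 against 24.4 and 36.8 TPM, and S100A9, a subunit of calprotectin, had 307 and 144 against 82.5 and 130 TPM. LOXL1, an enzyme that cross-links elastin, had 104 and 53.3 against 43.3 and 42.3 TPM. In all 3, replicate 1 was the high library and replicate 2 lay closer to Scr, which gave DHRS2 a log2 fold change of 1.30 ± 0.533, S100A9 1.02 ± 0.422 and LOXL1 0.79 ± 0.321. Without replicate 1 these were 0.55, 0.48 and 0.32. HYPK was higher at 13.8 and 13.2 against 5.06 and 8.44 TPM, but it shares its locus with a readthrough of its neighbour, and CGB8, lower at 3.79 and 10.2 against 16.6 and 15.0 TPM, is one of several closely matching gene copies, so that both values are uncertain.

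**Figure D2:**
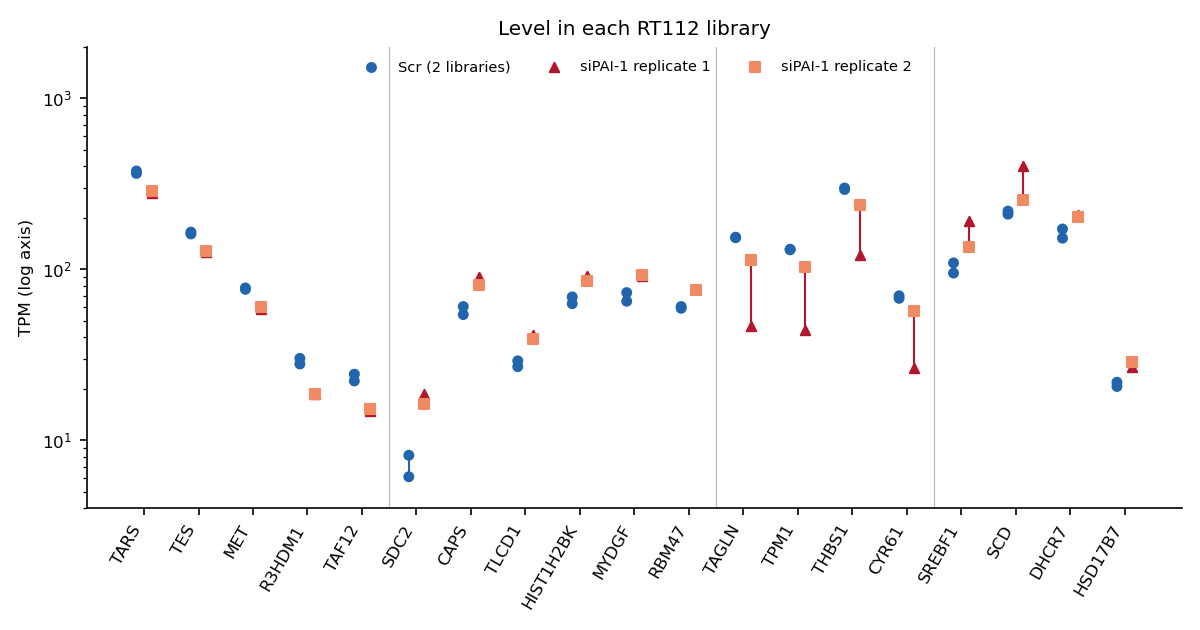
TPM on a log axis in each of the 4 RT112 libraries for genes with the smallest p (lower, then higher), contractile and matrix genes, and lipid genes, separated by grey lines. Circles are the 2 Scr libraries, the triangle siPAI-1 replicate 1 and the square replicate 2. TARS, TES and MET show tight pairs below Scr, while the triangles of TAGLN, TPM1, THBS1 and CYR61 lie far below the squares.

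Lipid synthesis genes were often higher. Cells build cholesterol from acetyl-CoA through mevalonate and squalene, and the transcription factors SREBP-1 and SREBP-2 (SREBF1, SREBF2), which are held in the endoplasmic reticulum by INSIG1 while sterols are plentiful, switch on this pathway and fatty acid synthesis. Of 25 well expressed genes of cholesterol synthesis and its control, 14 (56.0%) were higher and 1 (4%) lower without overlap, against the background of 20.1% and 18.1%. The median log2 fold change was 0.17 over the list and 0.004 over all well expressed genes. It was 0.25 in siPAI-1 replicate 1 and 0.08 in replicate 2, while the 2 Scr libraries differed by -0.05. Leaving out replicate 1 thus lowered the median more than 1.5 times, to 0.081, and left it above 0. From the early to the late steps, MVK had 53.1 and 42.0 against 39.5 and 40.5 TPM and MVD 89.0 and 81.2 against 68.5 and 71.1 TPM, both enzymes of the mevalonate branch. FDPS, farnesyl diphosphate synthase, had 262 and 245 against 231 and 223 TPM. In the sterol branch MSMO1 had 49.9 and 42.1 against 35.7 and 33.6 TPM, HSD17B7 26.9 and 28.5 against 21.8 and 20.6 TPM, and DHCR7, the reductase of the last step, 209 and 201 against 152 and 172 TPM. Groups did not overlap in any of these 6 enzymes, and 5 of them had an unadjusted p under 0.05 by limma, all but MVK. DHCR7 was 1.27-fold higher (log2 fold change 0.34 ± 0.076, unadjusted p = 0.00772) and MSMO1 1.32-fold (0.41 ± 0.109). INSIG1 had 64.9 and 44.5 against 40.2 and 40.3 TPM, with most of its difference in replicate 1 (log2 fold change 0.42, and 0.14 without replicate 1).

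Fatty acid synthesis held fewer but larger differences. SREBF1 (ENSG00000072310.16, chr17:17811334-17836986) had 191 and 135 TPM with siPAI-1 against 109 and 95 TPM with Scr, 1.58-fold higher (log2 fold change 0.66 ± 0.184, limma, unadjusted p = 0.0183), and 0.41 without replicate 1. SCD, the desaturase that makes oleate, had 402 and 256 against 210 and 219 TPM, and FASN, fatty acid synthase, 310 and 279 against 225 and 251 TPM. For SCD the log2 fold change was 0.58, and 0.26 without replicate 1. ELOVL6, an elongase of saturated fatty acids, had 18.8 and 20.8 against 15.6 and 15.7 TPM, while ELOVL5, an elongase of polyunsaturated ones, was lower at 36.2 and 38.7 against 45.6 and 45.2 TPM. Of 18 well expressed members 6 (33.3%) were higher and 1 (5.56%) lower without overlap, with a median of 0.08, and 0.05 without replicate 1.

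The 250 bases before the annotated start of these genes were searched for a sterol regulatory element, spelled TCACNCCAC on either strand. It was found in 1 of 19 cholesterol genes and 1 of 17 fatty acid genes with a promoter in the RefSeq table, against 0.755% of 6883 well expressed genes with a promoter and 0.875% of all 27305 promoters. The 2 promoters are shown because they carry the element in a pathway that was often higher, with the element (or its reverse complement) in capitals, read 5′ to 3′ on the strand of the gene (plus for both) from RefSeq on GRCh38.p14. SREBF2 (chr22:41832932-41833020) had a log2 fold change of 0.13 and MID1IP1 (chrX:38801379-38801458), an activator of acetyl-CoA carboxylase, one of 0.17, both with overlapping groups.
SREBF2: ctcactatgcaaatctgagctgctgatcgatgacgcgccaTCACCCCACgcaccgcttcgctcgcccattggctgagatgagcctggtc
MID1IP1: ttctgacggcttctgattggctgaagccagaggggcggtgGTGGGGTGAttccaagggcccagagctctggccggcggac

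The respiratory chain showed the same direction over many small differences. Its complexes pass electrons from NADH and succinate to oxygen and pump protons that drive ATP synthase, and apart from 13 subunits on mitochondrial DNA all subunits come from nuclear genes. Of 37 well expressed subunits of complex I, 35 were higher on average, 17 (45.9%) higher and 1 (2.70%) lower without overlap. In complexes II and III, 6 of 13 (46.2%) were higher and 0 lower. For complex IV these counts were 6 of 10 (60%) and 0, and for ATP synthase 8 of 17 (47.1%) and 0. The medians were 0.08, 0.11, 0.18 and 0.13 on the log2 scale. They were 0.151, 0.199, 0.264 and 0.2 in siPAI-1 replicate 1 and 0.027, 0.015, 0.050 and 0.016 in replicate 2, so that most of the difference lay in replicate 1. No member passed an adjusted p under 0.05. NDUFB8, an accessory subunit of complex I, had 243 and 228 TPM against 198 and 201 TPM (log2 fold change 0.24 ± 0.056, limma, unadjusted p = 0.00954). NDUFA13 had 201 and 185 against 152 and 168 TPM, and NDUFV1, which binds NADH, had 213 and 214 against 194 and 194 TPM. CYC1, cytochrome c1 of complex III, had 369 and 353 against 320 and 327 TPM. COX7B of complex IV had 300 and 271 against 246 and 256 TPM, and ATP5L of ATP synthase 443 and 399 against 372 and 355 TPM. In all 6 both siPAI-1 libraries were above Scr, at 1.1-fold to 1.21-fold, and replicate 1 was the higher one except in NDUFV1.

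Enzymes of the tricarboxylic acid cycle, which feeds the chain, followed: 8 of 23 (34.8%) were higher and 0 lower without overlap, with a median of 0.09. It was 0.162 in replicate 1 and 0.027 in replicate 2, more than 3 times lower without replicate 1. PDHB, a subunit of pyruvate dehydrogenase, had 32.1 and 33.7 against 28.1 and 28.8 TPM. Mitochondrial ribosomal proteins were higher in 21 of 78 (26.9%) and lower in 4 (5.13%), with a median of 0.03. That median was 0.064 in replicate 1 and -0.003 in replicate 2, so its sign turned without replicate 1. Of the 13 genes on mitochondrial DNA, 12 were higher on average, with a median of 0.08 like that of complex I. Only MT-CO3 was higher without overlap, at 4383 and 4800 against 3778 and 4270 TPM, and here replicate 2 was the high library. The median of the 13 genes was -0.05 in replicate 1 and 0.22 in replicate 2, and the 2 Scr libraries differed by -0.21, about as much as siPAI-1 replicate 2 from Scr. Without Scr replicate 1 the median was -0.032. Respiratory subunits have short transcripts, with median lengths of 849 to 2214 bases against 3758 over all well expressed genes. In the fifth of well expressed genes with the shortest transcripts, the median was 0.02 (0.043 in replicate 1 and 0.005 in replicate 2) and 24.0% were higher and 15.2% lower without overlap. In the fifth with the highest GC content the median was also 0.02, and 25.5% were higher and 13.4% lower. The part of transcript length and GC content in the respiratory group was not tested.

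NRF1 is a factor known to bind promoters of many respiratory genes. Its motif, GCGCANGCGC on either strand, was found before the start of 5 of 10 (50%) genes of complexes II and III with a RefSeq promoter. It was found in 5 of 31 (16.1%) complex I genes, 0 of 9 complex IV genes, 3 of 12 (25%) ATP synthase genes, 12.5% of all well expressed genes and 5.53% of all promoters. The motif or its reverse complement is in capitals, on the strand of the gene (plus for SDHD and NDUFA9, minus for UQCRFS1 and UQCRC1). The promoters of SDHD, an anchor subunit of complex II (chr11:112086723-112086812), UQCRFS1, the iron-sulfur subunit of complex III (chr19:29213152-29213222), and NDUFA9 of complex I (chr12:4648994-4649083) are shown as members with the motif that were higher without overlap, with log2 fold changes of 0.17, 0.12 and 0.14. UQCRC1 (chr3:48609647-48609733), a core subunit of complex III at -0.04 with overlapping groups, is shown as a member with the motif that was not. Of the other members of complexes I to III with the motif, SDHA was higher without overlap, at 0.13. NDUFA11, NDUFA12, NDUFA3, NDUFB4 and UQCR11 had overlapping groups, at 0.04, 0.01, 0.15, 0.11 and -0.04.
SDHD: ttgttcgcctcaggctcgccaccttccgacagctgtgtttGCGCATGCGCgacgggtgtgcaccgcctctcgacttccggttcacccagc
UQCRFS1: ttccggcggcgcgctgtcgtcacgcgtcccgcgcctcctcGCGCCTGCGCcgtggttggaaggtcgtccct
NDUFA9: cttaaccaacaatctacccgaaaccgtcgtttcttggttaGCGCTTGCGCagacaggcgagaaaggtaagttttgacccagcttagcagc
UQCRC1: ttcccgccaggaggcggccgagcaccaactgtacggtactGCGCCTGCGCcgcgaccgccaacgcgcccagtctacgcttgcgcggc

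**Figure D3:**
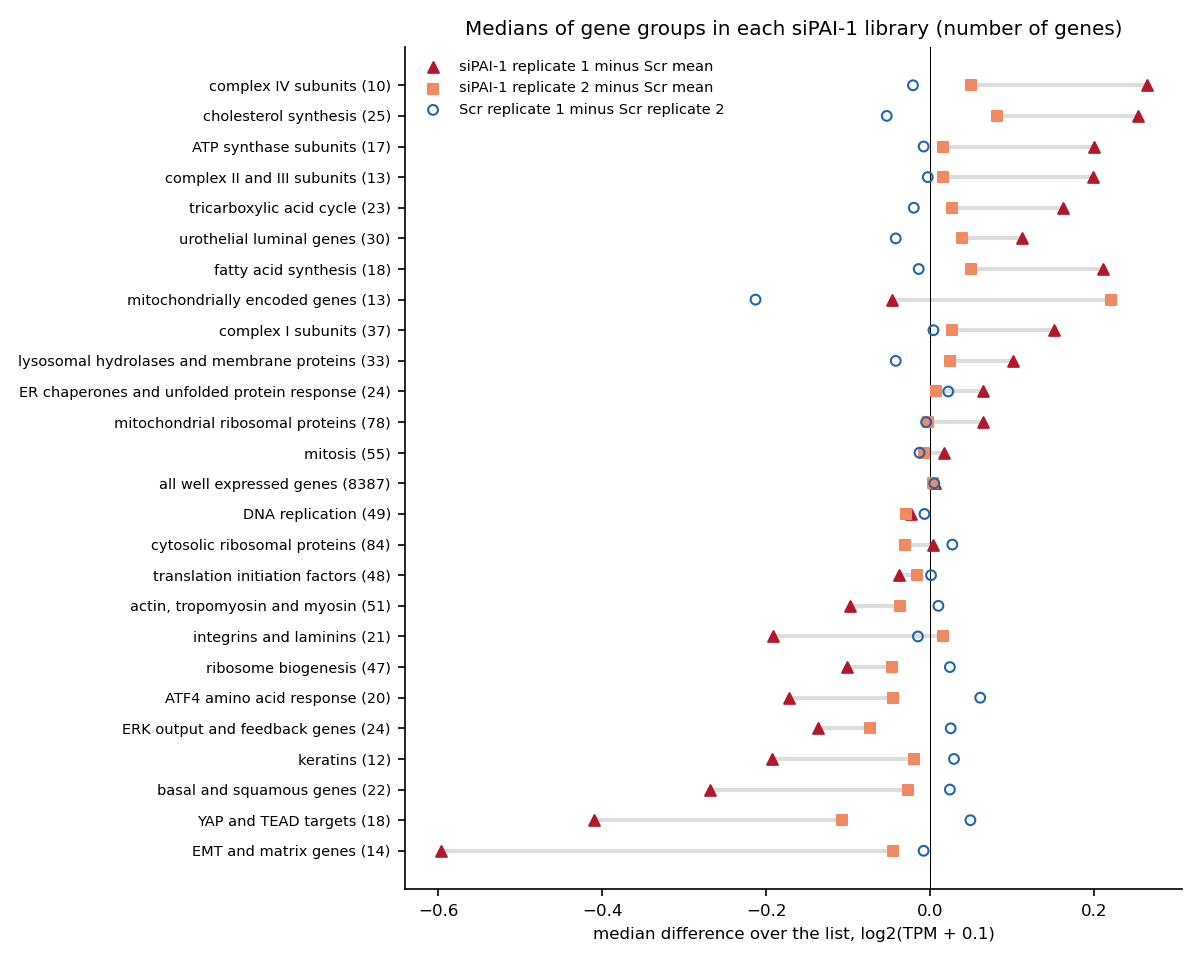
Medians of 25 gene groups and of all well expressed genes, with the number of genes in parentheses, on the log2(TPM + 0.1) scale. Triangles and squares give siPAI-1 replicates 1 and 2 against the Scr mean and open circles Scr replicate 1 against Scr replicate 2. Lipid and nuclear-encoded respiratory groups lie to the right and matrix, YAP, basal and ribosome biogenesis groups to the left, replicate 2 lies nearer to 0 than replicate 1 in most of them, and mitochondrially encoded genes have a Scr difference about as wide as their siPAI-1 values.

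Genes that build ribosomes were often lower. Ribosome biogenesis starts with RNA polymerase I in the nucleolus, where small nucleolar ribonucleoproteins modify and assembly factors fold the ribosomal RNA. Of 47 well expressed genes of this list, 38 were lower on average, 19 (40.4%) lower and 2 (4.26%) higher without overlap, against 18.1% and 20.1% in the background. The median was -0.08, with -0.10 in replicate 1 and -0.05 in replicate 2. POLR1B, the second largest subunit of RNA polymerase I, had 26 and 22.4 TPM with siPAI-1 against 29.7 and 36.3 TPM with Scr. NOP2, a methyltransferase for ribosomal RNA, had 94.8 and 92.5 against 116 and 109 TPM, a log2 fold change of -0.26 ± 0.061 (limma, unadjusted p = 0.0098). NOB1, which cuts the precursor of the small subunit RNA, had 107 and 122 against 133 and 132 TPM, and EBNA1BP2, an assembly factor of the large subunit, had 324 and 353 against 382 and 375 TPM. The groups were apart in all 4, by 1.12-fold to 1.36-fold.

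The ribosome itself differed less. Of 84 cytosolic ribosomal protein genes 19 (22.6%) were lower and 4 (4.76%) higher without overlap, but the median was -0.01 (0.004 in replicate 1 and -0.031 in replicate 2) and apart from RPL7L1, a relative of a ribosomal protein with a log2 fold change of -0.21, the members without overlap lay between -0.09 and 0.09. RPS2 had 6066 and 6600 against 6687 and 6710 TPM, and RPL35A 1941 and 1848 against 2009 and 2022 TPM. Among translation initiation factors and their regulators 15 of 48 (31.2%) were lower and 6 (12.5%) higher, with a median of -0.02 (-0.038 in replicate 1 and -0.016 in replicate 2). EIF6, which keeps the subunits apart, had 447 and 497 against 558 and 511 TPM, and EIF2B4, a subunit of the exchange factor for EIF2, had 28.1 and 28.4 against 32.1 and 33.7 TPM. EIF2B5, another subunit of the same complex, was higher at 73.3 and 77.9 against 65.3 and 68.3 TPM. Besides TARS, 5 of the 22 cytosolic tRNA synthetases were lower without overlap, FARSA at 72.1 and 74 against 81.5 and 82.9 TPM and LARS at 108 and 113 against 123 and 122 TPM among them, and 3 were higher.

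Genes of amino acid supply that the factor ATF4 is known to control were often lower as well. Of 20 well expressed members 17 were lower on average and 8 (40%) lower and 2 (10%) higher without overlap, with a median of -0.09 (-0.172 in replicate 1 and -0.045 in replicate 2). SLC3A2 and SLC7A5, which together form a transporter of large neutral amino acids, had 645 and 865 against 1028 and 1001 TPM and 603 and 860 against 995 and 897 TPM. Replicate 1 was much lower than replicate 2 in both. ASNS, asparagine synthetase, had 40.3 and 45.3 against 59.2 and 47.7 TPM, PSAT1, of serine synthesis, 51.9 and 60.2 against 69.2 and 66.3 TPM, and PYCR1, of proline synthesis, 48.6 and 50.3 against 58.6 and 57.9 TPM. SLC16A1, a transporter of lactate, was also lower at 11.9 and 18.7 against 28.3 and 22.8 TPM, whereas its relative SLC16A3 was higher at 81.6 and 84.9 against 75.5 and 65.8 TPM.

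The actin cytoskeleton and the genes that respond to its tension were often lower. Actin filaments bundled by actinin and filamin and pulled by myosin II hold epithelial cells to their matrix, and the regulators SRF, with its MRTF partners, and TEAD, with YAP or TAZ, raise the matching genes when filaments are under tension. Of 51 well expressed genes of actin, tropomyosin, myosin and their partners, 19 (37.3%) were lower and 1 (1.96%) higher without overlap. The median was -0.06, with -0.10 in replicate 1 and -0.04 in replicate 2. Besides TAGLN and TPM1, MYL9, a light chain of myosin II, had 17.4 and 36.8 TPM against 46.7 and 42.3 TPM, and FLNA, filamin A, 294 and 422 against 485 and 452 TPM. ACTN1, alpha-actinin, had 168 and 226 against 254 and 238 TPM. ZYX, zyxin of focal adhesions, had the smallest p of the list, at 118 and 128 against 156 and 150 TPM (log2 fold change -0.31 ± 0.065, limma, unadjusted p = 0.0058). ACTG1, one of the most abundant messages of the cells, had 4878 and 5605 against 6123 and 5716 TPM. In MYL9, FLNA and ACTN1, as in TAGLN, most of the difference lay in replicate 1, while ZYX was low in both. Without replicate 1 the log2 fold changes of MYL9, FLNA and ACTN1 went from -0.81, -0.41 and -0.34 to -0.27, -0.15 and -0.12, and that of ZYX from -0.31 to -0.26. Of muscle and fibroblast markers DES and COL1A2 were at 0 in every library, MYH11 lay at 0.04 to 0.18 TPM and COL3A1 at 0.12 to 0.48 TPM. COL1A1, a fibrillar collagen, was detected in all 4 libraries at 6.95 and 6.39 against 5.39 and 6.78 TPM, and ACTA2, a smooth muscle actin, had 12.3 and 15.3 TPM with siPAI-1 and overlapped with Scr.

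YAP and TEAD targets and pathway members were lower in 10 of 18 (55.6%) and higher in 1 (5.56%) without overlap. Their median was -0.27, with -0.41 in replicate 1 and -0.11 in replicate 2, so leaving out replicate 1 brought it to -0.108. CYR61, a secreted matricellular protein and a classical YAP target, had 26.3 and 57.0 against 69.9 and 67.6 TPM. AXL, a receptor kinase, had 14.2 and 26.6 against 30.6 and 27.1 TPM, F3, tissue factor, 90.2 and 129 against 164 and 140 TPM, and AMOTL2, a junction protein that binds YAP, 29.9 and 44 against 52.7 and 47.2 TPM. NT5E, the surface enzyme that makes adenosine, had 18 and 21.4 against 27.1 and 28.2 TPM (log2 fold change -0.49 ± 0.117), and the factor TEAD4 itself had 23.8 and 25.4 against 31.1 and 31.0 TPM (-0.33 ± 0.083). CYR61, AXL, F3 and AMOTL2 differed mainly in replicate 1, with log2 fold changes of -0.27, -0.12, -0.23 and -0.18 without it. NT5E and TEAD4 were low in both libraries.

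Matrix genes and markers of epithelial-mesenchymal transition were lower in 9 of 14 (64.3%) and higher in 1 (7.14%). The median of -0.32 rested on replicate 1, where it was -0.60. It was -0.045 in replicate 2. THBS1, thrombospondin, had 121 and 239 against 299 and 293 TPM, FN1, fibronectin, 58.2 and 108 against 113 and 120 TPM, and CDH2, N-cadherin, 7.65 and 17.9 against 18.2 and 20.6 TPM. SNAI2, a repressor of epithelial genes, had 42.9 and 62.8 against 68.2 and 70.4 TPM, and the collagens COL4A1 and COL4A2 had 31.6 and 47.0 against 48.3 and 48.0 TPM and 95.4 and 136 against 141 and 141 TPM. Replicate 2 was thus close to Scr for the collagens and fibronectin. MMP1, a collagenase, was the member that was higher, at 60.4 and 41.7 against 34.0 and 36.8 TPM.

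SRF binds the CArG box, a short AT-rich stretch between CC and GG. In the 250 bases before the start it was present in 5 of 43 (11.6%) genes of the actin list with a RefSeq promoter, against 1.02% of well expressed genes and 1.14% of all promoters, and in 2 of 31 complex I genes. All 5 actin list promoters with a box are shown, since this is the group of lower genes with the motif. ACTG1 (chr17:81512844-81512933) and FLNA (chrX:154374679-154374768) were lower without overlap, and CNN2 (chr19:1026479-1026568), MYO1E (chr15:59372872-59372942) and TPM4 (chr19:16067325-16067414) had overlapping groups, with log2 fold changes of -0.12, 0.02 and -0.16. The box is in capitals, and the strand is that of the gene (plus for CNN2 and TPM4, minus for ACTG1, FLNA and MYO1E).
ACTG1: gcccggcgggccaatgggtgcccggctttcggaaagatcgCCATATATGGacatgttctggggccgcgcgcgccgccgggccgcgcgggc
FLNA: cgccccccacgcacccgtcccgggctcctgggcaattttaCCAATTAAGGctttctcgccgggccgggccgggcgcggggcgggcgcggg
CNN2: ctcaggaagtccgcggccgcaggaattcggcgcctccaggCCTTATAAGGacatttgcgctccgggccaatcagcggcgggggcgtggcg
MYO1E: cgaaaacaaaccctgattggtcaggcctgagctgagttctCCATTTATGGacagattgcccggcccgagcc
TPM4: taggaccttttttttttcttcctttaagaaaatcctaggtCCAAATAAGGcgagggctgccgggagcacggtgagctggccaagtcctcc
The TEAD motif GGAATG was found in 2 of 12 (16.7%) promoters of the YAP list, against 9.07% of well expressed genes, and the CArG box in 0 of them. The 2 genes with the TEAD motif, FOXF2 and YAP1, had overlapping groups, with log2 fold changes of -0.06 and -0.01.

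**Figure D4:**
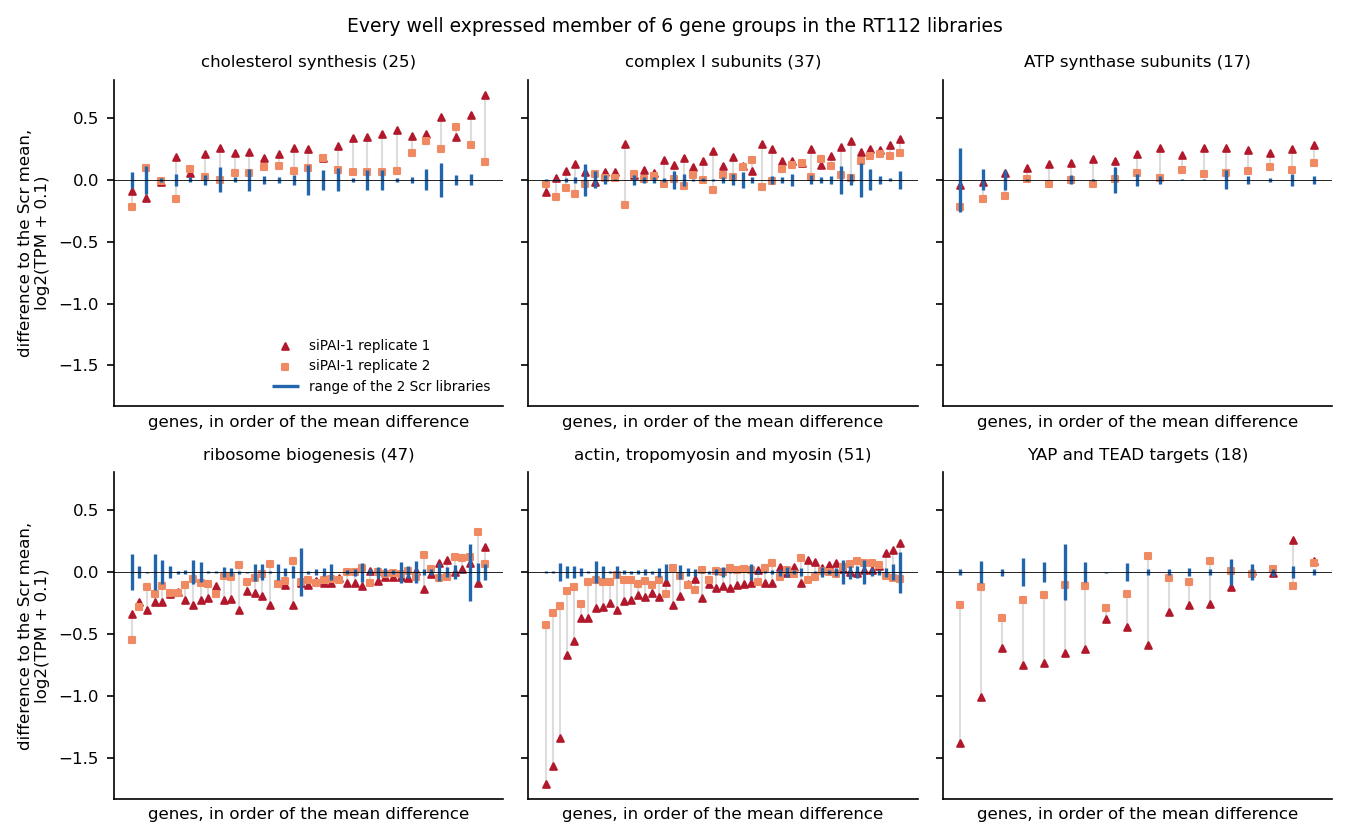
Every well expressed member of 6 groups, ordered by its mean difference, with siPAI-1 replicate 1 (triangles), replicate 2 (squares) and the range of the 2 Scr libraries (blue bars) as differences to the Scr mean on the log2(TPM + 0.1) scale. In cholesterol synthesis, complex I and ATP synthase the triangles lie above 0 for nearly all members with the squares closer to it, most ribosome biogenesis genes lie slightly below 0, and TAGLN, TPM1 and MYL9 at the left of the actin panel have triangles below -1.

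Epithelial genes divided by type. The urothelium has basal cells, with KRT5, KRT6A, KRT17 and laminin-332, and luminal cells, with uroplakins and FGFR3. Of 22 well expressed genes of the basal and squamous list, 9 (40.9%) were lower and 4 (18.2%) higher without overlap. The median was -0.16, and -0.03 without replicate 1. KRT6A had 142 and 211 against 264 and 235 TPM, KRT17 951 and 1219 against 1277 and 1258 TPM, and the laminin chain LAMA3 75.4 and 99.5 against 119 and 117 TPM. KRT6A shares most of its sequence with KRT6B and KRT6C, so its reads may be divided. Among the members that were higher, SPRR1A, a precursor of the cornified envelope, had 12.2 and 11.7 against 7.48 and 8.92 TPM. Of 30 luminal genes 11 (36.7%) were higher and 3 (10%) lower, with a median of 0.09, and 0.04 without replicate 1. FGFR3, a growth factor receptor typical of luminal tumors, had 195 and 154 against 130 and 131 TPM (log2 fold change 0.41 ± 0.123, limma, unadjusted p = 0.0237), and ESRP2, an epithelial splicing factor, 42.9 and 41.6 against 37 and 34.9 TPM. The uroplakin UPK3B had 136 and 118 against 102 and 111 TPM. CYP1A1, a target of the AHR receptor, was among the 3 that were lower, at 11.1 and 15.0 against 17.8 and 20.8 TPM. Over the 12 well expressed keratins 5 (41.7%) were lower and 2 (16.7%) higher without overlap, with a median of -0.11 (-0.193 in replicate 1 and -0.020 in replicate 2). Among keratins of simple epithelia KRT7, the most abundant of them, had 3278 and 4136 against 4193 and 4167 TPM, lower by 0.35 on the log2 scale in replicate 1 and nearly level with Scr in replicate 2. The groups were closer in KRT8, at 2373 and 2533 against 2580 and 2566 TPM, and in KRT19, which had, with overlapping groups, 2797 and 2840 against 2942 and 2788 TPM.

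Surface and calcium-binding families held large values with wide replicates. Of 19 S100 and annexin genes, 7 (36.8%) were higher and 5 (26.3%) lower without overlap. S100A4, S100P and S100A6 had 1051 and 635 against 498 and 552 TPM, 1614 and 948 against 858 and 944 TPM, and 2675 and 1912 against 1754 and 1888 TPM. In S100P and S100A6, replicate 2 was barely above the higher Scr library. ANXA5 was lower at 330 and 346 against 411 and 380 TPM and S100A2, of basal cells, at 892 and 1060 against 1169 and 1113 TPM. The glycoproteins CEACAM5 and CEACAM6 had 119 and 63.4 against 50.8 and 60.4 TPM and 731 and 493 against 436 and 479 TPM, again with most of the difference in replicate 1. At tight junctions the claudins CLDN7 and CLDN1 were higher, at 27.5 and 18.6 against 16.4 and 14 TPM and 83.8 and 72.1 against 62.1 and 66.8 TPM, and the scaffold TJP1 was lower at 33.1 and 40.1 against 47.1 and 55.8 TPM. Over the 27 genes of junctions 5 were higher and 6 lower.

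Signalling genes close to growth factor receptors were lower more often than higher. Of 24 ERK output and feedback genes, 20 were lower on average and 10 (41.7%) lower and 3 (12.5%) higher without overlap, with a median of -0.09 (-0.14 in replicate 1 and -0.07 in replicate 2). HBEGF, a ligand of EGFR, had 11.2 and 12.1 against 14.7 and 15.3 TPM, and the transcription factors JUN and JUNB had 49.3 and 67.9 against 75.4 and 70.3 TPM and 66.5 and 78.2 against 87.0 and 83.1 TPM. DUSP4, a phosphatase that acts on ERK, was higher at 18.4 and 14.6 against 12.5 and 14.1 TPM. Among 23 genes of TGF-beta signalling 8 (34.8%) were lower and 5 (21.7%) higher. SMAD3 had 55.9 and 64.1 against 70.4 and 69.4 TPM and the target TGFBI 252 and 297 against 315 and 312 TPM, while ID1 was higher at 402 and 308 against 285 and 307 TPM. Inflammatory genes were lower in 6 of 15 (40%) and higher in 3, with IL18 at 42.7 and 46.0 against 54.8 and 54.8 TPM (log2 fold change -0.31 ± 0.072, limma, unadjusted p = 0.00953) and IL1B at 24.7 and 25.8 against 29.1 and 30.1 TPM. Interferon-stimulated genes and genes of HLA class I were both balanced, with 5 of 24 higher and 5 lower, and 4 of 18 higher and 4 lower, which is near the background. NOTCH3 was higher at 26 and 21.6 against 19.3 and 17.1 TPM and WNT10A at 36.8 and 42.3 against 31.5 and 32.2 TPM.

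Genes of the cell cycle had small medians. Cyclins, CDKs and inhibitors of G1 were higher in 3 of 18 and lower in 2 without overlap, with a median of -0.038 (-0.038 in replicate 1 and 0.005 in replicate 2). DNA replication genes were lower in 17 of 49 (34.7%) and higher in 10 (20.4%), with a median of -0.005 (-0.024 in replicate 1 and -0.030 in replicate 2). MCM4, of the replicative helicase, had 489 and 468 against 547 and 535 TPM, and GINS2, GINS4 and POLA2, of the same machinery, were lower as well, GINS2 with 85.8 and 80.0 against 95.7 and 98.8 TPM. GINS1 was higher at 72.5 and 66.4 against 61.3 and 60.6 TPM, and POLD2 at 119 and 117 against 102 and 105 TPM. Of 55 mitosis genes 9 (16.4%) were higher and 7 (12.7%) lower, and MKI67 had 99.1 and 104 against 94.4 and 96.7 TPM. The p53 targets were mixed, with 7 of 24 higher and 5 lower. PLK2, a kinase, had 92.4 and 92.9 against 119 and 111 TPM (log2 fold change -0.31 ± 0.062, limma, unadjusted p = 0.00501) and GADD45A, a stress protein, 48.8 and 56.9 against 67.0 and 71.2 TPM, while GDF15, a secreted stress cytokine, was higher at 67.2 and 55.4 against 47.8 and 50.9 TPM. In the BCL2 family 6 of 15 were lower and 0 higher without overlap, among them BID at 153 and 139 against 156 and 160 TPM and BNIP3L at 43.4 and 37.3 against 48.9 and 45.6 TPM. The family's median was 0.002, but it was -0.029 in replicate 1 and -0.026 in replicate 2, and it was below 0 whichever library was left out. On average 8 members were higher, all with overlapping groups.

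Genes of the secretory pathway and the lysosome were more often higher. Of 33 lysosomal hydrolases and membrane proteins, 12 (36.4%) were higher and 1 (3.03%) lower without overlap, with a median of 0.07 and 0.02 without replicate 1. CTSD, cathepsin D, had 653 and 542 against 481 and 495 TPM, CTSB, cathepsin B, 88.7 and 90.1 against 77.8 and 81.8 TPM, and FUCA1, a fucosidase, 19.7 and 17.5 against 14.8 and 15.1 TPM. IDS, iduronate sulfatase, was lower at 40.8 and 38.5 against 49.8 and 44.2 TPM. In the translocon, signal peptidase and oligosaccharyl transferase, which bring new proteins into the endoplasmic reticulum and attach their first sugars, 13 of 32 (40.6%) were higher and 4 (12.5%) lower, with KRTCAP2 at 210 and 178 against 157 and 141 TPM and RPN2 at 389 and 346 against 309 and 324 TPM. The median of these 32 genes was 0.025 (0.052 in replicate 1 and 0.017 in replicate 2). Among chaperones of that compartment 8 of 24 (33.3%) were higher and 0 lower, by small amounts such as P4HB, protein disulfide isomerase, at 912 and 886 against 833 and 819 TPM. Their median of 0.048 fell to 0.007 without replicate 1. Proteasome subunits, by contrast, were higher in 8 and lower in 11 of 48, with a median of -0.004 (0.023 in replicate 1 and -0.023 in replicate 2).

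NRF2 targets and glutathione enzymes also held several higher genes. Of 28 NRF2 targets 9 (32.1%) were higher and 4 (14.3%) lower, and of 26 peroxiredoxins and glutathione enzymes 9 (34.6%) and 3. The medians were 0.042 and 0.059, and without replicate 1 they were 0.015 and 0.0. AKR1C1, AKR1C2 and AKR1C3, aldo-keto reductases that act on steroids, had 535 and 464 against 415 and 424 TPM, 479 and 437 against 367 and 376 TPM, and 208 and 179 against 147 and 169 TPM. They are closely related copies whose reads can be divided, so they do not count as 3 separate observations. GPX2, a glutathione peroxidase, had 319 and 260 against 212 and 237 TPM and MGST3, a glutathione transferase of membranes, 76.8 and 71.6 against 60 and 62.4 TPM. GCLM, of glutathione synthesis, and SQSTM1 were lower, at 75.6 and 84.5 against 92.6 and 97.9 TPM and 503 and 519 against 616 and 554 TPM. MT2A, a metallothionein that binds zinc, was lower mainly in replicate 1, at 346 and 521 against 640 and 627 TPM. Of the zinc importers SLC39A4 was lower at 115 and 122 against 145 and 140 TPM and SLC39A7 higher at 114 and 103 against 92.4 and 96.0 TPM.

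Among other large families several were near the background in both directions. Of 110 zinc finger genes 17.3% were higher and 16.4% lower without overlap, and of 53 chromatin remodellers and modifiers 18.9% and 17%. Core spliceosome proteins had 21.3% and 17% of 47 genes. Solute carriers had 25.2% and 16.8% of 107 genes, with SLC1A3, a glutamate transporter, higher at 98.0 and 88.7 against 73.0 and 72.9 TPM (log2 fold change 0.35 ± 0.072). RAB GTPases had 17.6% and 8.82% of 34 genes, fewer lower genes than the background of 18.1%. The machinery of RNA interference, which both siRNA pools use, had 2 of 12 higher and 3 lower. Of the hnRNP proteins 7 of 27 (25.9%) were lower and 3 (11.1%) higher, more lower and fewer higher than in the background, and SYNCRIP had 333 and 340 against 380 and 356 TPM.

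The same genes were then read in UM-UC-3, the other bladder cancer line, which was treated alike and has its own Scr libraries. Of the 1689 genes higher without overlap in RT112, 16.4% were higher and 22% lower without overlap in UM-UC-3, where the background was 17.6% and 20.3%. Of the 1519 lower genes 20.5% were lower and 19.2% higher. These shares were near that background in either direction. The cholesterol list had a median of -0.03 over the 24 members with at least 10 TPM in UM-UC-3, the ATP synthase list -0.01, complex I 0.01, the YAP list 0.02 over 14 members, and the matrix list -0.01 over 12 members. Of the 47 ribosome biogenesis genes 19 were lower and 6 higher without overlap in UM-UC-3, a larger share lower than the background of 20.3%, with a median of -0.03. Of 32 genes of the translocon, signal peptidase and oligosaccharyl transferase 13 were higher and 3 lower there (median 0.025). Chaperones of the endoplasmic reticulum were higher in 9 of 23 and lower in 1 (median 0.038), and lysosomal genes higher in 6 of 29 and lower in 6 (median 0.025). The mitochondrially encoded genes were higher without overlap in 13 of 13 in UM-UC-3, with a median of 0.28. NDRG2 and LRP1 had similar log2 fold changes in both lines, 0.35 and 0.34 for NDRG2 and 0.35 and 0.32 for LRP1.

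Whether an effect differed between the lines was tested with the interaction term of limma over all 8 libraries. At an adjusted p under 0.05 there were 0 well expressed genes, while 639 (7.62%) had an unadjusted p under 0.05. MYDGF, TARS, R3HDM1, SREBF1 and NT5E were named for their differences in RT112. The interaction term uses the same RT112 values, so small p-values for these genes are not separate support for a difference. MYDGF had log2 fold changes of 0.42 in RT112 and -0.24 in UM-UC-3 (limma, unadjusted p = 0.000452 for the difference). For TARS they were -0.39 and -0.08 (limma, unadjusted p = 0.00139), and for R3HDM1 -0.64 and 0.19 (limma, unadjusted p = 0.00103). SREBF1 had 0.66 and -0.02 (limma, unadjusted p = 0.0317), and NT5E -0.49 and 0.12 (limma, unadjusted p = 0.00323). FGFR3 and TAGLN were hardly expressed in UM-UC-3, at 1.29 to 2.21 TPM and 0.84 to 1.92 TPM, beside values of 130 to 195 TPM and 46.8 to 154 TPM in RT112.

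**Figure D5:**
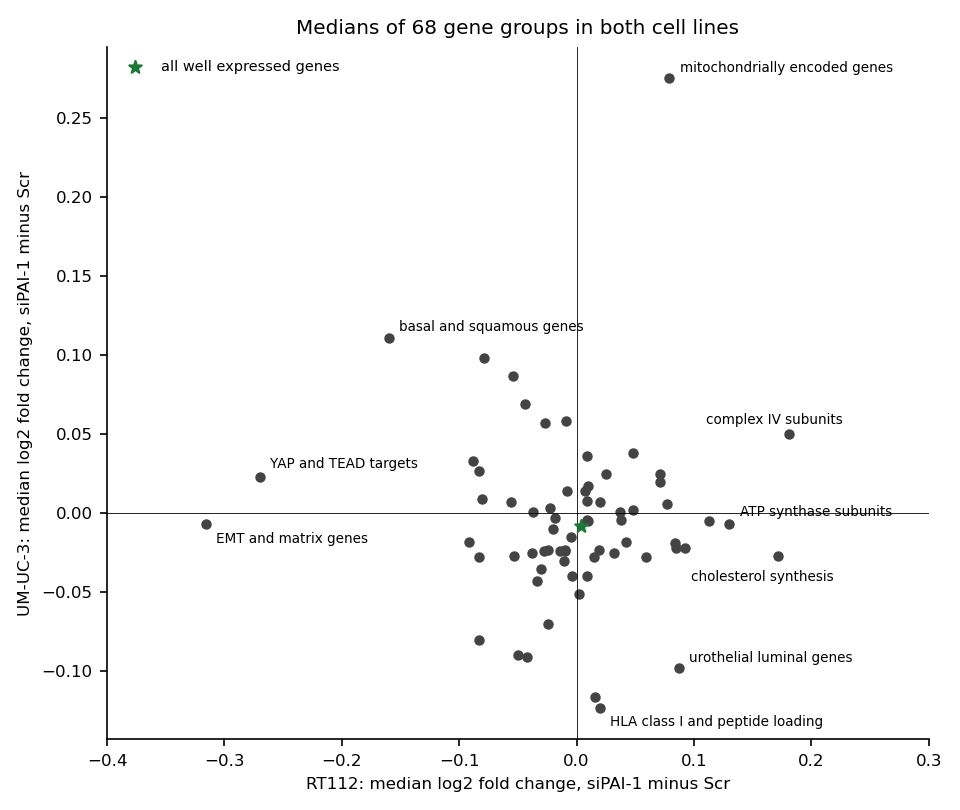
Median log2 fold change of 68 gene groups in RT112 (x axis) and UM-UC-3 (y axis), each over members with at least 10 TPM in the line, for groups with at least 5 such genes in UM-UC-3. Matrix, YAP, cholesterol and ATP synthase groups lie away from 0 along the RT112 axis and near 0 along the UM-UC-3 axis, mitochondrially encoded genes are highest in UM-UC-3, and basal and squamous genes have opposite signs (over 5 genes in UM-UC-3).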

How the data were processed

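RNA of RT112 and UM-UC-3 cells was sequenced as 75-base single reads, and 8 libraries in 4 groups of 2 were used here. According to the methods, the authors trimmed reads with cutadapt and aligned them with STAR to human genome build hg38, and the submitters' processing notes name STAR 2.5.0 and RSEM 1.2.25. Per gene, TPM and FPKM were deposited by the authors in 1 table of 27567 entries, of which 92 are spike-ins and were left out. TPM scales each library to the same total, so a gene's value also moves when abundant genes move. The methods name a count test, but counts were not used here, so log2(TPM + 0.1) of the 4 RT112 libraries was fitted with limma 3.58.1 in R 4.3.3 (lmFit, eBayes with trend, two-sided), and p-values were adjusted by Benjamini-Hochberg across all 18437 genes with any value above 0 there. Deposited FPKM values served as an alternative and for depth. The number of reads was taken as the depth between 20 M and 45 M reads at which low FPKM values come out as whole reads within 0.1. A depth 2 times as large would also do so, hence the counting errors are upper values.

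The gene lists and the choice of well expressed genes were made with earlier results of these data known, and 107 genes are in 2 or more of the 71 lists. Named genes are the 10 with the smallest p and the 10 with the largest difference without overlap in each direction, from each list up to 4 members without overlap and those with an unadjusted p under 0.05, and the 2 most abundant members. MVK, ACTN1, AMOTL2, SNAI2, COL4A1, COL4A2, JUNB, SMAD3 and MKI67 were chosen after their values were seen, and the promoters for their motif. Locations and promoters are from RefSeq on GRCh38.p14 (6883 of 8379 symbols matched to a promoter, Python 3.11.15). Transcript length and GC content are those of the longest GENCODE 44 transcript of a gene.

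The fit was tested on simulated reads for RT112 siPAI-1 against Scr with known fold changes, over all genes and over the well expressed genes alone. Alternatives were other pseudocounts, FPKM, median ratio rescaling, a higher minimum, other fits, a replicate block and leaving out each library. The level of the targeted message and of a few other genes that the rule names is not reported here.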

Additional observations from a re-analysis of the deposited data

How the results depend on the processing

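No well expressed gene had an adjusted p under 0.05 by limma under any alternative run (0 in each). At an unadjusted p under 0.05 the counts of 305 higher and 236 lower genes became 56 and 52 without the mean-variance trend, and 195 and 148 with a minimum mean of 30 TPM, where 975 and 982 genes had no overlap, 50% were higher and the median was -0.0. Fewer genes enter that fit, and the cause of the shift in share and median was not tested. Median ratio rescaling gave 47.9% higher and a median of -0.0064. Leaving out 1 library at a time gave 120 to 538 higher and 97 to 537 lower genes at that p. The highest counts (538 and 537) came without siPAI-1 replicate 2, and the counts were 203 and 212 without siPAI-1 replicate 1, 120 and 97 without Scr replicate 1, and 148 and 111 without Scr replicate 2, while a lone library is assumed to vary like the other group. With 1 library against 2, groups overlap less often by construction, with 2886 to 3243 genes higher and 2656 to 3023 lower, and 50.4% to 51.8% of genes were higher. The count of 639 genes for the difference between the lines was 282 without the trend. Of 426 list medians under alternatives 370 moved by less than the spread between replicates, 56 moved further and 53 had another sign. That spread was the SD over the 4 pairs of a siPAI-1 and a Scr library. It is wide where a single library drives a list, so staying within it does not show a stable median. Integrins and laminins stayed within it while turning from -0.079 to 0.016 without siPAI-1 replicate 1. The sign was the same in all 4 pairs in 33 of 71 lists.

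With the replicate number as a block, 213 genes were higher and 197 lower at an unadjusted limma p under 0.05, 0 passed the adjustment, and 591 genes had an unadjusted p under 0.05 for the difference between the lines. Over all well expressed genes, same-numbered libraries did not deviate together (correlation of the replicate differences -0.045). The mitochondrially encoded genes were higher in replicate 2 of both groups. Their summed level was 40366 and 48811 TPM with siPAI-1 and 38869 and 44677 TPM with Scr. Whether the libraries were handled in numbered pairs cannot be told from these values or the labels. The counting error of the median gene, estimated at 3086 reads, was at most 1.8%. The 2 Scr libraries differed by more than that, with a median absolute difference of 0.095 on the log2 scale. A difference smaller than the spread between libraries cannot be told from it here.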
